A study of Mus musculus with 4 samples.

Results

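Peaks obtained with a Ruvbl2 antibody were examined at 10 genes of polyunsaturated lipid handling and lipid peroxidation, of 21883 protein-coding genes in the RefSeq table of mouse assembly GRCm38.p6, whose coordinates are those of mm10. The genes were chosen by name: Acsl4, Acsl3, Lpcat3, Alox5, Alox12, Alox15, Por, Cyb5r1, Elovl5 and Fads2. All 10 had a match, and every peak that overlapped a gene body or its 10 kb flanks by at least 1 bp was counted. Leukaemia stem cells (LSC) were sorted from bone marrow of Nup214fl/+ mice with MLL-AF9-driven leukaemia, through a gate negative for lineage markers and Sca-1 and positive for c-Kit, CD16/32 and CD34. Haematopoietic stem cells (HSC) came from Nup214fl/+ mice by a sort of LSK cells for CD150 and against CD48. All mice thus carried a single floxed Nup214 allele, and the labels name no Cre, no deletion and no age. The LSC gate also describes granulocyte-monocyte progenitors, so maturation and leukaemia cannot be told apart. The cell type field of the labels reads haematopoietic stem cell for all 4 libraries, and the groups were taken from the titles. Each group had 2 libraries made by CUT&Tag (cleavage of chromatin by a transposase tethered to the bound antibody), from 2000 to 5000 cells each.

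Iron-dependent cell death by lipid peroxidation, ferroptosis, needs polyunsaturated fatty acyl chains in membrane phospholipids. Desaturases and elongases make these chains, acyl-CoA synthetases activate them, and lysophospholipid acyltransferases insert them into phospholipids. Lipoxygenases and electron-donating reductases then take part in their oxidation, and lipoxygenases also make leukotrienes and related mediators in myeloid cells. Ruvbl2 is an AAA+ ATPase found in several chromatin-remodelling complexes, among them INO80, and the comparison asks which of these genes carried peaks in LSC and in HSC.

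The deposited lists held 216077 and 210541 peaks for LSC replicates 1 and 2, and 161655 and 286107 peaks for HSC replicates 1 and 2. Because the lists differ in length, a peak is called strong below when it ranked among the 20000 strongest of its library by the deposited −log10 p. The weakest strong peak had a fold of 28.4 and 18.2 in LSC replicates 1 and 2, and of 22.7 and 12.7 in HSC replicates 1 and 2. Fold is the authors' ratio of summit pileup to library background, so it describes a peak within its own list and is not an amount to be compared between libraries. Folds printed for several libraries below describe each peak in its own list, and an order between libraries is read from ranks alone. Read totals are not in the lists and depth is unknown. The summit pileup was recovered from fold with a background fitted in each library to give whole numbers of fragments. It was whole for every peak tested (fold under 60, tolerance 0.05), which the fit itself favours. The −log10 p computed from this pileup by a Poisson law met the deposited value within a relative 0.05 for 100% of the weaker peaks tested. The weakest strong peak rested on 154 and 85 fragments in LSC and on 82 and 67 in HSC. Replicate numbers moved together in other ways: peak names follow a scheme shared by both replicate 1 libraries and another shared by both replicate 2 libraries, and of every 10000 peaks, 94.2 and 91.8 lay on chromosome Y for replicate 1 of LSC and HSC, and 1.24 and 0.561 for replicate 2 of LSC and HSC. The part of such a batch in the results was not tested beyond the comparisons within each replicate number. The labels do not say whether libraries came from separate animals. A library made without this antibody was not analysed here, and the labels name an anti-rabbit secondary antibody without giving the host of the primary, so dependence of the peaks on Ruvbl2 was not tested.

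Promoter sequences are shown for 4 genes with peaks at their starts. Each sequence holds the 250 bases before the RefSeq start site, 5′ to 3′ on the gene's strand, as RefSeq gives it for GRCm38.p6. Capitals mark exact matches, on either strand, to the CCAAT box (CCAAT), the GC box (GGGCGG), the TATA box (TATAAA), the E-box (CACGTG), the CRE (TGACGTCA) and an ETS site (CCGGAAG), and neighbouring GC boxes may overlap. Por and Lpcat3 are shown because strong peaks lay there in both replicate 2 libraries, Acsl4 because it had the strongest promoter peak of HSC replicate 1 among these genes, and Cyb5r1 because its promoter alone carried a peak in all 4 libraries.
Por (chr5:135688895-135689144, + strand): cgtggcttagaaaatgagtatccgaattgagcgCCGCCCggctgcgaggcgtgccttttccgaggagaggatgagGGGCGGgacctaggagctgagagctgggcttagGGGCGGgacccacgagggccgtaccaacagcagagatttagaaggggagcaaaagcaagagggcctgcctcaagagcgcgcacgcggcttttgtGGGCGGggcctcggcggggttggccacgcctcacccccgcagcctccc
Lpcat3 (chr6:124662854-124663103, + strand): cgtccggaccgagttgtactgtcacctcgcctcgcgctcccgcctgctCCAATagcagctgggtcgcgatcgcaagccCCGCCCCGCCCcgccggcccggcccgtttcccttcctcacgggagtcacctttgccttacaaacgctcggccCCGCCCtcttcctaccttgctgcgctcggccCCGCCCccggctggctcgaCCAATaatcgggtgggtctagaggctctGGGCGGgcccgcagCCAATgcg
Acsl4 (chrX:142390536-142390785, - strand): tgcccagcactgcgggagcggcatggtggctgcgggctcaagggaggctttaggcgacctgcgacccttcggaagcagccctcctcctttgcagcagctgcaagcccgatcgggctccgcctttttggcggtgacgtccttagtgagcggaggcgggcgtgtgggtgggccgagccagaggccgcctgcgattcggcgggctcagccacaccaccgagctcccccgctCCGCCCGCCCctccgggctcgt
Cyb5r1 (chr1:134405531-134405780, + strand): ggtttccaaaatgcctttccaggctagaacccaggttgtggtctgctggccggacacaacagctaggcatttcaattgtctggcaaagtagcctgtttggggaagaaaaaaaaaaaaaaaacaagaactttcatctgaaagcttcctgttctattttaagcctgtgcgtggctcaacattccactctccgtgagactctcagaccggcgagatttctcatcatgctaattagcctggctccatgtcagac
These windows differed in base composition. The Por promoter was 65.6% G or C with 21 CpG, Lpcat3 70.0% with 29 CpG and Acsl4 70.8% with 25 CpG, whereas Cyb5r1 was 46.0% with 5 CpG, beside medians of 52.0% and 6 over 27025 promoters in the table. Por held 4 GC boxes, Acsl4 2, and Lpcat3 5 GC boxes with 3 CCAAT boxes, while none of the 6 motifs was found in the Cyb5r1 window. Of all 27025 promoters, 32.9% held a GC box and 34.5% a CCAAT box. The TATA box was in 13.0%, the E-box in 6.05%, the CRE in 1.62% and the ETS site in 7.05% of them. A match is a string of letters and not a measured binding site.

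Peaks at gene starts were more frequent in the replicate 2 libraries than in the replicate 1 libraries, among these genes as among all genes. RefSeq promoter sequences, running from 250 bases before to 50 bases after the start site, were at hand for 9 of the 10 genes, all but Alox15. A deposited peak of any strength overlapped this window at 3 and 8 of the 9 genes in LSC replicates 1 and 2, and at 3 and 5 of the 9 in HSC replicates 1 and 2. The same held for 16.8% and 33.1% of 17491 protein-coding promoters in LSC, and for 13.7% and 35.2% in HSC. The 9 genes are too few for these shares to be compared closely with the background. Cyb5r1 was the only gene of the 9 with a peak in all 4 libraries, a pattern that 4.33% of all promoters showed, and Alox12 the only gene with a peak in none, against 47.8% of all promoters.

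**Figure D1:**
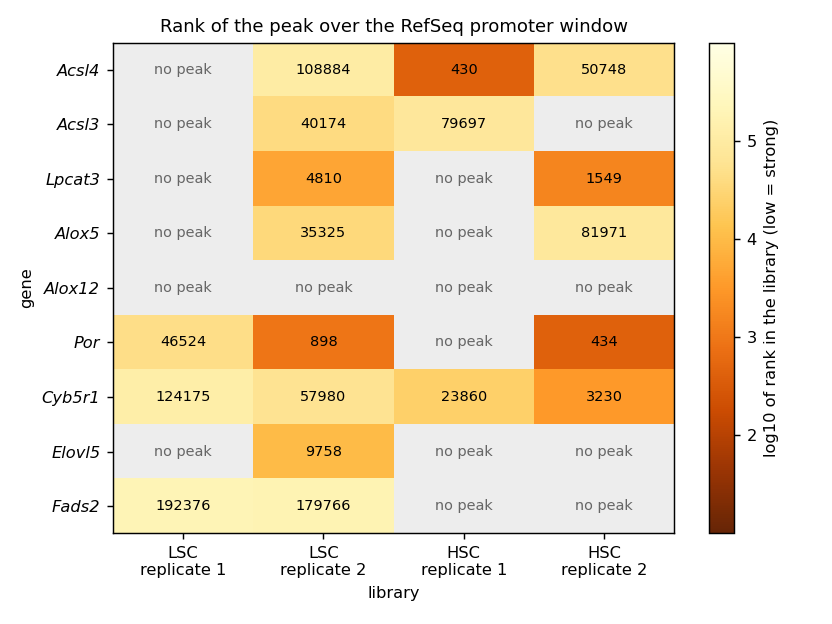
Rank within its library of the peak that overlaps the RefSeq promoter window of each gene (rows) in each library (columns), coloured by the log10 of the rank, where a low rank is a strong peak, with grey cells where no deposited peak lies. Cyb5r1 has a value in all 4 columns, ranks 124175 and 57980 in LSC and 23860 and 3230 in HSC, and Alox12 has none.

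Taken over the whole gene windows, strong peaks were found at 9 of the 10 genes in at least 1 library. They lay at 6 and 7 of the 10 genes in LSC replicates 1 and 2 and at 6 and 6 of the 10 in HSC replicates 1 and 2. The background was 44.4% and 52.2% of all protein-coding genes in LSC and 42.4% and 52.1% in HSC. Por, Lpcat3, Cyb5r1 and Elovl5 had a strong peak in all 4 libraries, a pattern of 18.3% of all genes, and Acsl3 had none in any library, against 22.5% of all genes. The windows of the 10 genes had a median of 68.2 kb, against 37.2 kb over all protein-coding genes. A longer window can hold more peaks, and the part of window length in these counts was not tested. Per 100 kb of window, deposited peaks numbered 13.9 and 12.6 in LSC replicates 1 and 2 and 7.20 and 16.2 in HSC replicates 1 and 2. Over the windows of all protein-coding genes the density was 9.80 and 9.59 in LSC and 6.91 and 12.8 in HSC. Strong peaks numbered 1.84 and 2.91 per 100 kb in LSC and 1.38 and 1.68 in HSC, against 1.03 and 1.17 in LSC and 0.970 and 1.17 in HSC over all gene windows. The densities of the 10 genes lay above those of all genes in each library, by the smallest margin in HSC replicate 1.

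**Figure D2:**
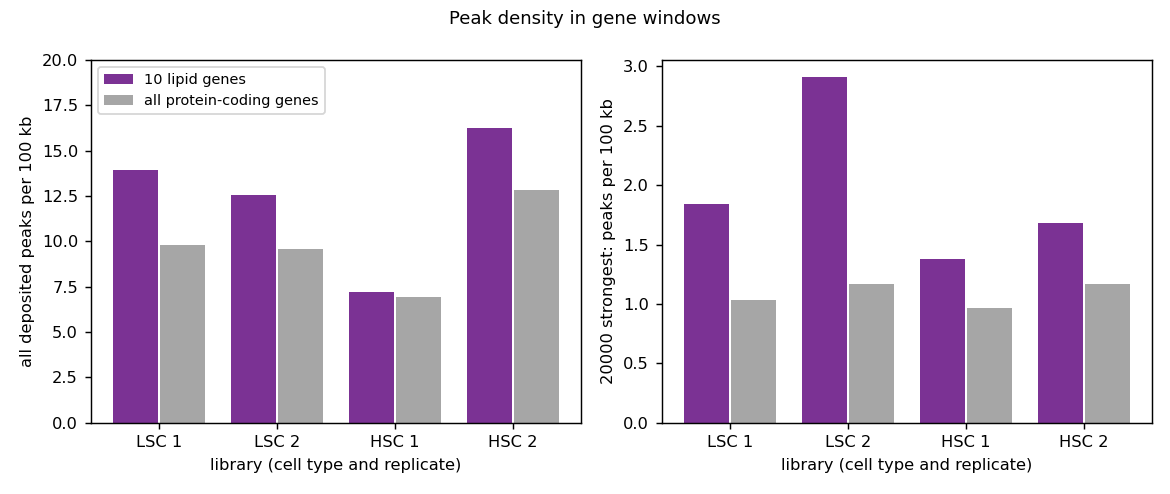
Peaks per 100 kb in the windows (gene body and 10 kb flanks) of the 10 lipid genes (purple) and of all protein-coding genes (grey), for all deposited peaks on the left and the 20000 strongest of each library on the right. In the left panel the lipid genes range from 7.20 in HSC replicate 1 to 16.2 in HSC replicate 2.

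**Figure D3:**
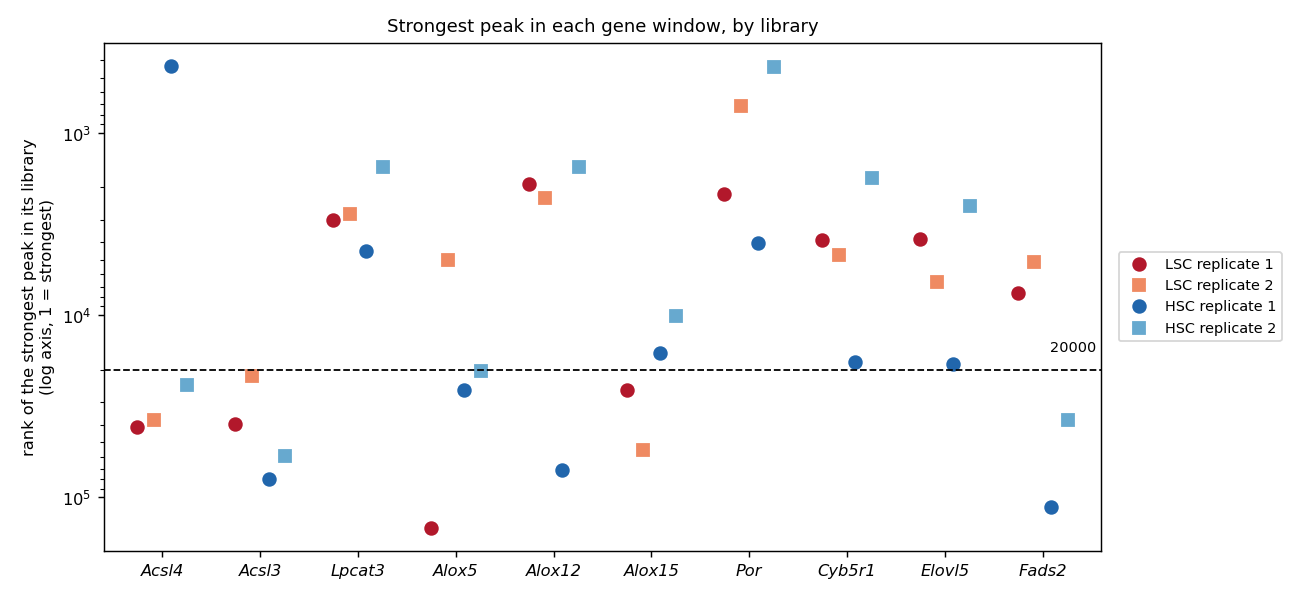
Rank, on a log axis with the strongest at the top, of the strongest peak in the window of each gene in each library, with LSC in red tones and HSC in blue tones. Circles are replicate 1, squares replicate 2, and the dashed line is rank 20000. Por has all 4 points above rank 5000, while all 4 points of Acsl3 lie below the line.

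The enzymes that activate fatty acids differed from each other. Acsl4 joins polyunsaturated fatty acids, arachidonate above all, to coenzyme A. At its start (chromosome X, gene 142317993 to 142390802, minus strand) the promoter peak had a fold of 8.68 in LSC replicate 2, and of 71.6 and 9.73 in HSC replicates 1 and 2, with no overlapping peak in LSC replicate 1. HSC replicate 1 stood apart: its peak at 142390253 to 142390673 ranked 430 with 261 fragments at the summit, 162 bp downstream of the start site, while those of LSC replicate 2 and HSC replicate 2 ranked 108884 and 50748. A second strong peak of HSC replicate 1 had its summit 20372 bp downstream of the start, at 142369836 to 142370406, with a fold of 41.0. Peaks of LSC replicates 1 and 2 overlapped the same region with folds of 4.58 and 9.53, and no peak of HSC replicate 2 did. Acsl4 is X-linked, and chromosome X accounted for 2.65% and 3.94% of the peaks of LSC replicates 1 and 2 and for 2.79% and 4.27% of those of HSC replicates 1 and 2. HSC replicate 1 was the only library with strong Acsl4 peaks. A link between these shares and the Acsl4 peaks was not tested. Acsl3, which activates oleate and other long-chain fatty acids, had 10 and 10 peaks in LSC and 3 and 8 in HSC, none of them strong. Its best folds were 20.7 and 17.6 in LSC, at ranks 39865 and 21675, and 13.1 and 9.17 in HSC, at ranks 79697 and 59465. The promoter peaks of Acsl3 (LSC replicate 2, fold 13.3, and HSC replicate 1, fold 13.1) cannot be assigned to it alone, because Utp14b has the same annotated start at 78657825 on chromosome 1.

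Fads2 and Elovl5 make the polyunsaturated chains. Fads2, the delta-6 desaturase (chromosome 19, 10062765 to 10101503, minus strand), was the only gene of the 10 with strong peaks in both LSC libraries and in neither HSC library, a pattern of 2.82% of all genes. Its best fold was 47.6 and 26.7 in LSC replicates 1 and 2, at ranks 7608 and 5132, and 9.84 and 10.7 in HSC replicates 1 and 2, at ranks 113790 and 37889. Both LSC libraries ranked above both HSC libraries, but their strong peaks were at different places. LSC replicate 1 had its own at 10083600 to 10083931 and 10088700 to 10089463, and LSC replicate 2 at 10064395 to 10065081. The peak from 10088700 overlapped the best HSC replicate 2 peak, at 10088394 to 10089423, and no peak of LSC replicate 2. At 10064395 to 10065081, 36642 bp downstream of the start, LSC replicate 1 had a weaker peak with a fold of 16.7 and rank 60882. Its summit lay 460 bp from that of LSC replicate 2, and neither HSC library had a peak at this place. This place is also within 10 kb of Fads3, a neighbouring desaturase-family gene. The Fads2 promoter window held peaks in LSC alone, with folds of 4.76 and 5.29 on 25 and 24 fragments. They were weak, at ranks 192376 and 179766 in LSC replicates 1 and 2. An HSC replicate 1 peak with a fold of 9.84 ended within 200 bp of that window, its summit 390 bp downstream of the start. That peak ranked above both, at 113790.

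Elovl5 elongates the chains (chromosome 9, 77917365 to 77984519, plus strand). It held the most peaks of the 10 genes in LSC replicate 1 and both HSC libraries, with 21 and 12 in LSC and 9 and 24 in HSC. The best folds were 65.5 and 24.6 in LSC, at ranks 3851 and 6571, and 23.2 and 22.8 in HSC, at ranks 18706 and 2544, each at a different position in the gene, at 6821 and 3636 bp from the start in LSC and at 14296 and 16003 bp in HSC. The best peak of LSC replicate 1 was overlapped by a weaker peak of HSC replicate 2, at rank 45315. That of LSC replicate 2 was overlapped by a weaker peak of HSC replicate 1, at rank 111088. No other library had a peak over the best HSC peaks. The promoter window of Elovl5 was overlapped in LSC replicate 2 alone. That peak had a fold of 22.0 and its summit 301 bp upstream of the start. A region upstream of the gene (77908806 to 77911155) was covered in all 4 libraries, with folds of 25.1 and 24.1 in LSC and 4.65 and 5.99 in HSC. Only the peak of LSC replicate 2 there was strong, at rank 6946, against rank 25969 in LSC replicate 1, and 155322 and 136539 in HSC replicates 1 and 2. Both LSC peaks thus ranked above both HSC peaks. HSC replicate 2 had 2 peaks in this region, and the weaker, at 77910698 to 77910996 with a fold of 5.05 and rank 183765, was the one that overlapped the peak of HSC replicate 1.

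Lpcat3 inserts polyunsaturated chains into lysophospholipids (chromosome 6, 124663094 to 124704716, plus strand). A strong peak lay over its start in both replicate 2 libraries, with a fold of 27.3 in LSC replicate 2 (124662864 to 124663361, rank 4810, 128 fragments) and 27.3 in HSC replicate 2 (124662279 to 124663870, rank 1549, 145 fragments). The summits were 30 and 118 bp downstream of the start site. Neither replicate 1 library had a peak over the promoter, and their strong peaks lay elsewhere in the gene, at 124700193 to 124700704 with a fold of 71.2 in LSC replicate 1 and at 124668733 to 124669172 with a fold of 42.4 in HSC replicate 1. The replicate 2 libraries shared a second strong place in the downstream flank, with folds of 33.2 in LSC and 21.5 in HSC, at ranks 2788 and 2973, which lies at the ends of the neighbouring genes Emg1 and Phb2.

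None of the lipoxygenase genes among the 10 had strong peaks in all 4 libraries. Alox5 makes leukotriene precursors in myeloid cells (chromosome 6, 116410071 to 116461178, minus strand). Its best folds were 7.87 and 26.9 in LSC replicates 1 and 2 and 20.5 and 12.5 in HSC replicates 1 and 2. LSC replicate 2 alone had strong peaks, 3 in number, and LSC replicate 1 had the lowest-ranked best peak of any of the 10 genes in any library, at rank 147510. The best peak of LSC replicate 2 (116408130 to 116408517) lay within the neighbouring Marchf8, while its other strong peaks, with folds of 21.6 and 18.2, lay in the Alox5 body. A region 2039 bp downstream of the start (116458316 to 116459963) held overlapping peaks from all 4 libraries. Their folds were 7.87 and 16.5 in LSC and 10.4 and 5.24 in HSC, none of them strong. The peaks of LSC replicate 1 (116458959 to 116459323) and HSC replicate 1 (116459403 to 116459963) did not overlap each other.

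Alox12 makes 12-hydroperoxy fatty acids and is known from platelets (chromosome 11, 70241457 to 70255380, minus strand). A strong peak inside the gene was found in LSC replicate 1 alone, at 70244461 to 70245102, with a fold of 81.3, rank 1910 and 443 fragments. Its window also held a region covered in all 4 libraries (70237346 to 70238242), with folds of 11.3 and 36.0 in LSC and 13.9 and 27.3 in HSC. That region lies 17576 bp downstream of the Alox12 start, over the ends of 0610010K14Rik (70237923) and Rnasek (70238123), and was strong in both replicate 2 libraries. Alox15, whose product oxidises arachidonate and linoleate within membranes (70344147 to 70390538 on the same chromosome), was the only gene of the 10 with strong peaks in both HSC libraries and in neither LSC library, a pattern of 2.35% of all genes. Its best fold was 25.1 and 11.6 in LSC replicates 1 and 2, at ranks 25969 and 55375, and 24.9 and 14.97 in HSC replicates 1 and 2, at ranks 16265 and 10113. The strong HSC peaks did not coincide, since those of replicate 1 lay at 70337150 to 70337387 and 70376115 to 70376358 and that of replicate 2 at 70395434 to 70396125, inside the neighbouring Pelp1.

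Both reductase genes had strong peaks in all 4 libraries. Por hands electrons from NADPH to cytochrome P450 enzymes (chromosome 5, 135670040 to 135735326, plus strand). Its start site in the RefSeq promoter table (135689145) lies inside the annotated gene, close to the end of the lncRNA Gm40345 (135689051). Over that start the fold was 19.2 and 51.5 in LSC replicates 1 and 2, at ranks 46524 and 898, and 45.1 in HSC replicate 2, at rank 434, while HSC replicate 1 had no peak there. The strong peaks spanned 135688506 to 135689236 in LSC replicate 2 and 135688391 to 135689735 in HSC replicate 2, on 242 and 240 fragments at summits 155 and 258 bp upstream of the start site. A second region, in the gene body 14025 bp downstream (135702276 to 135704065), was covered in all 4 libraries with folds of 15.7 and 56.1 in LSC and 39.9 and 13.8 in HSC. LSC replicate 2 and both HSC libraries were strong there, at ranks 713, 5466 and 13637, and LSC replicate 1 was not, at rank 67006. Within 500 bp beyond that region LSC replicate 1 had its strongest Por peak, at 135704500 to 135705071, with a fold of 78.5 and rank 2181. A weaker peak of HSC replicate 2 overlapped it, with a fold of 8.23 and rank 74949. The region from 135702276 was the only place in the 10 windows that was strong in both HSC libraries.

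Cyb5r1, an NADH-cytochrome b5 reductase family member (chromosome 1, 134405781 to 134411738, plus strand), is the shortest of the 10 genes at 5958 bp. Over its start the fold was 9.70 and 11.4 in LSC and 21.0 and 20.8 in HSC. Both HSC peaks ranked above both LSC peaks. The peak of HSC replicate 2 (134405474 to 134406805, rank 3230) was strong, that of HSC replicate 1 ranked 23860 and those of LSC replicates 1 and 2 ranked 124175 and 57980. Summits lay from 467 bp upstream of the start in LSC replicate 2 to 437 bp downstream in HSC replicate 2. The downstream flank, which overlaps Adipor1 (134415378 to 134433351), held a chain of overlapping peaks from all 4 libraries (134417950 to 134420030). Their folds were 65.2 and 27.5 in LSC and 23.5 and 10.3 in HSC. The LSC replicate 1 peak (134418248 to 134418430) overlapped that of HSC replicate 2 alone, so no base was common to all 4 libraries. The count of strong peaks at Cyb5r1 in all 4 libraries rests on this flank, because with the gene body alone LSC replicate 2 and HSC replicate 1 had no strong peak.

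**Figure D4:**
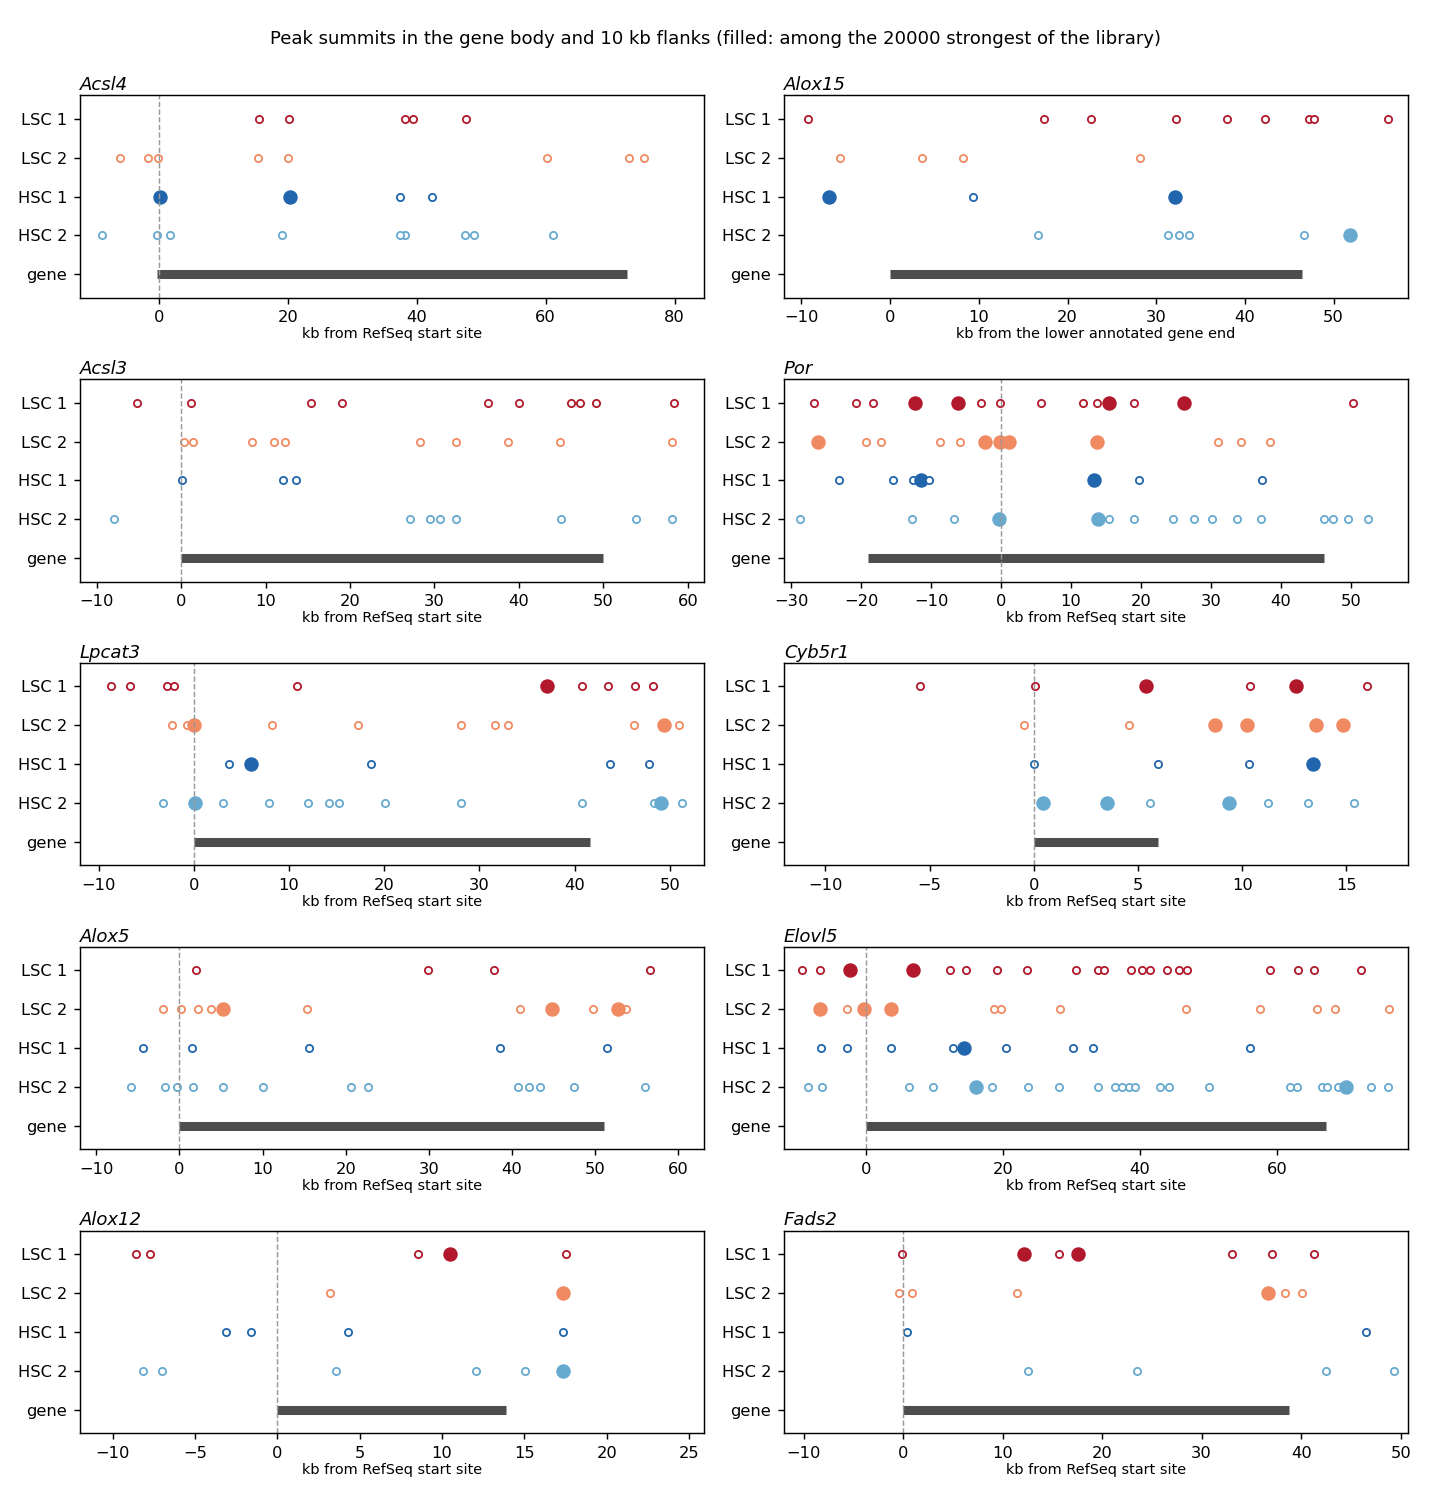
Summit of each deposited peak in the window of each gene, as distance in kb from the RefSeq start site (from the lower annotated end for Alox15), read in the direction of transcription where the start is known. Rows are libraries, large filled points are among the 20000 strongest of the library, and the grey bar is the annotated gene. Strong points of different libraries seldom line up, and the Por start at 0 kb has strong points in LSC replicate 2 and HSC replicate 2.

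Most of the 10 genes did not differ between the cell types in the same direction at both replicate numbers. At replicate 1, strong peaks were found in LSC and not in HSC at 2 of the 10 genes (Alox12 and Fads2, background 18.3%), and in HSC and not in LSC at 2 (Acsl4 and Alox15, background 16.4%). At replicate 2 the counts were 2 for LSC alone (Alox5 and Fads2, background 12.8%) and 1 for HSC alone (Alox15, background 12.7%). Fads2 and Alox15 were thus the genes with the same direction at both numbers, 1 gene for each direction. The count for HSC alone was 0 with 10000 or with 40000 strongest peaks and 0 with the gene body alone. For LSC alone, Fads2 was the gene counted with 10000 strongest peaks and with the gene body alone. With 40000, Acsl3 took its place (1 gene), since the best Fads2 peak of HSC replicate 2 ranked 37889, and within 1000 bp of the gene ends the count was 0. Without LSC replicate 1, Alox5 joined Fads2 as LSC alone, a pattern then shown by 7.80% of all genes. Without HSC replicate 2, Alox12 joined Fads2 (10.7% of all genes), and Acsl4 joined Alox15 as HSC alone (7.39% of all genes). No gene had strong peaks in both replicate 2 libraries and in neither replicate 1 library (0 of 10, background 6.78%), and none had the reverse pattern (0 of 10, background 2.47%). An exact permutation test of 2 libraries against 2 has 3 possible splits and a lowest two-sided p of 0.333, which cannot pass 0.05, and no test of the cell types was made.

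The number of deposited peaks in a gene window followed the length of the library's list. At replicate 1, 9 of the 10 genes had more peaks in LSC than in HSC, against 63.3% of all genes, with Alox5 the exception. At replicate 2, 8 of the 10 had fewer in LSC than in HSC, against 62.7% of all genes, with Acsl3 and Fads2 the exceptions. These libraries differ in the same way in all their peaks, since LSC replicate 1 has the longer list of its pair and LSC replicate 2 the shorter. Acsl3 and Fads2 had more peaks in LSC at both numbers (background 14.7%). Fads2 had 7 and 6 peaks in LSC against 2 and 4 in HSC. Alox5 had fewer in LSC at both (background 13.8%), with 4 and 11 in LSC against 5 and 13 in HSC. Scaled to list length, peaks in the 10 windows made up 4.25 and 3.93 per 10000 of the peaks of LSC replicates 1 and 2, and 2.94 and 3.72 per 10000 of those of HSC replicates 1 and 2. The LSC values lay above the HSC values without overlap, but so did those of all protein-coding gene windows, with 5896 and 5912 per 10000 in LSC and 5563 and 5788 in HSC. Strong peaks, counted in lists of nearly equal length, numbered 12 and 19 in LSC and 9 and 11 in HSC, beside 13282 and 15067 in LSC and 12489 and 15038 in HSC over all gene windows. The gap between the nearest libraries of the groups was smaller than the spread between the HSC libraries for all peaks, and smaller than the spread between the LSC libraries for strong peaks.

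Few peaks lay at the same place in different libraries. The 326 peaks in the 10 windows formed 241 regions of overlapping peaks, of which 178 (73.9%) came from a single library, against 81.7% of 404508 regions in the windows of all genes. A region was built as a chain, each peak overlapping another in it, so its peaks need not all share a base. The regions with peaks of all 4 libraries numbered 6 (2.49%, background 0.872%), with 2 in the window of Cyb5r1 and the others at Por, Alox5, Alox12 and Elovl5. At Alox5 and in the downstream flank of Cyb5r1, no base was common to peaks of all 4 libraries. Regions in both LSC libraries and in neither HSC library numbered 10 (4.15%, background 2.16%), and regions in both HSC libraries and in neither LSC library numbered 3 (1.24%, background 2.16%). Regions of the replicate 2 libraries alone were the most frequent pairing, with 18 (7.47%, background 4.06%), and the replicate 1 libraries alone shared 1 (0.415%, background 1.37%). The remaining 17 regions found in exactly 2 libraries joined LSC of a replicate number with HSC of the other. A count of regions in a pair depends on the length of all 4 lists, so LSC and HSC counts are not on equal terms.

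The regions found in LSC alone lay at Por (2), Fads2 (2), Elovl5 (2), Lpcat3 (2), Acsl4 (1) and Acsl3 (1). By the rank in the weaker library, the leading one was in the Elovl5 body (77963914 to 77964414), near an end of the lncRNA Gm34771, with folds of 25.3 and 16.1 at ranks 25544 and 27048 in LSC replicates 1 and 2. Next came the upstream flank of Por (135662256 to 135662947), with folds of 24.5 and 22.9 at ranks 27302 and 8446, and then the Fads2 region around 10064395. The 3 regions found in HSC alone lay at Acsl4 (142353009 to 142353583, folds 16.4 and 11.98, summits 25 bp apart), Lpcat3 (124665378 to 124667029, folds 6.29 and 11.8) and Por (135726065 to 135726604, folds 15.3 and 6.74). In none of these 13 regions were both libraries strong.

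Within a replicate number, 10 of 91 peaks of LSC replicate 1 (10.99%) overlapped a peak of HSC replicate 1, which were 10 of its 47 (21.3%). For LSC replicate 2, 27 of 82 peaks (32.9%) overlapped 27 of the 106 (25.5%) of HSC replicate 2. Over the windows of all genes the shares were 8.99% and 12.6% at replicate 1 and 23.8% and 17.7% at replicate 2. Among strong peaks, 0 of 12 in LSC replicate 1 met any of the 9 of HSC replicate 1, and 6 of 19 in LSC replicate 2 met 6 of the 11 of HSC replicate 2. LSC replicates 1 and 2 shared 0 strong peaks between their 12 and 19, and HSC replicates 1 and 2 shared 1 between their 9 and 11. Over all gene windows the strong peaks shared were 8.12% of LSC and 8.62% of HSC at replicate 1, and 28.6% of LSC and 28.4% of HSC at replicate 2. They were 12.96% and 11.02% between LSC replicates 1 and 2, and 15.5% and 12.3% between HSC replicates 1 and 2. With 9 to 19 strong peaks a library, the members' counts of 0 and 1 do not set them apart from these shares, and the replicate 2 libraries shared most over all genes too. Of all 51 strong peaks, 6 lay within 1000 bp of an annotated end of the gene they were counted for. Within 1000 bp of an end of another annotated gene lay 12. The strong peaks over the Por start in LSC replicate 2 and HSC replicate 2 are among these 12, near an end of Gm40345. They are not among the 6, because that start lies inside the annotated gene. The same counts over the strong peaks of all genes were not made.

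Other genes of lipid metabolism were read the same way from a list of 35. Strong peaks in all 4 libraries were found at 10 of the 35 (28.6%, background 18.3%). None of the 35 had them in both LSC and neither HSC library (0, background 2.82%), and none in both HSC and neither LSC library (0, background 2.35%). By worst rank the leading genes were Cyb5r3, which encodes another cytochrome b5 reductase, Pla2g6, a phospholipase that releases fatty acids from phospholipids, Alox5ap, which presents arachidonate to 5-lipoxygenase, and Elovl6, an elongase of saturated chains. At Cyb5r3 the best folds were 99.6 and 70.9 in LSC and 41.5 and 40.8 in HSC, at ranks 776 and 366 in LSC and 4772 and 559 in HSC. At Pla2g6 they were 60.0 and 65.0 in LSC and 49.5 and 18.3 in HSC, at ranks 4834 and 482 in LSC and 2388 and 4817 in HSC. Alox5ap, the partner of Alox5, had 49.4 and 27.5 in LSC and 44.8 and 14.2 in HSC, at ranks 7097 and 4705 in LSC and 3601 and 12299 in HSC. At Elovl6 they were 35.9 and 21.2 in LSC and 26.2 and 17.8 in HSC, at ranks 12316 and 11424 in LSC and 14743 and 5362 in HSC.

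Genes that define the cell types were read in the same way, although such peaks measure antibody signal and not expression. Of 6 stem cell genes, 4 and 3 were strong in LSC replicates 1 and 2 and 3 and 2 in HSC replicates 1 and 2, with Procr strong in no library. Of 6 myeloid progenitor genes, 5 and 6 were strong in LSC and 5 and 5 in HSC. Among these, the neighbours Prtn3 and Elane had the same best peak in LSC replicate 2 and in both HSC libraries. Over all protein-coding genes, a strong peak was found at 44.4% and 52.2% in LSC and 42.4% and 52.1% in HSC. The B cell gene Cd79a was strong in LSC alone. Its best peaks ranked 19449 and 1037 in LSC replicates 1 and 2 and 42697 and 21504 in HSC replicates 1 and 2. Ranks 19449 and 21504 lie close to the limit for a strong peak. The B cell gene Pax5 was strong in LSC replicate 1 and in both HSC libraries, at ranks 5786, 11383 and 9151. Pax5 was not strong in LSC replicate 2, at rank 20207. Cd79b was strong in LSC replicate 2 alone, at rank 12852. T cell genes gave 3 and 2 of 4 in LSC and 2 and 2 of 4 in HSC, and erythroid genes 2 and 2 of 4 in LSC and 2 and 3 of 4 in HSC. Ruvbl2 itself was strong in all 4 libraries. The part of other cells in the sorted populations was not tested.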

How the data were processed

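Ruvbl2 CUT&Tag was read from 4 deposited peak lists, 2 of LSC and 2 of HSC, 1 list per library. Per the submitters' processing notes, FastQC 0.11.5, Bowtie2 2.2.9, MACS2 and ChIPseeker were used with the mm10 build. Settings, and any control in peak calling, were not given in the sources used here. In these narrowPeak files the authors deposited, per peak, a score (10 times −log10 q, cut to a whole number), a fold (ratio of summit pileup to background), −log10 p and −log10 q, and the summit. Per the labels, libraries came from 2000 to 5000 cells and 17 to 20 PCR cycles, so fragments need not be independent molecules.

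Peaks on the autosomes, X and Y were kept and ranked within each library by −log10 p, and ties at rank 20000 were kept. Windows were RefSeq gene bodies with 10 kb flanks, and an overlap of 1 bp counted. Each count of members is set beside the same count over 21883 protein-coding genes, or 17491 with a promoter sequence. Genes were matched by symbol. All 10 members were named, and of 35 other lipid genes at most 4 per pattern, by worst rank. The members and lists were chosen with earlier results of these data known. No test was made. Alternatives were 10000 or 40000 strongest peaks, all peaks, ranking by fold, other windows, summits in place of overlaps, and leaving out each library. The code was tested on simulated peaks. Python 3.11.15, pandas 2.3.3, NumPy 2.4.6 and Matplotlib 3.10.9 were used. The count over B cell genes is not reported here.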

Additional observations from a re-analysis of the deposited data

How the results depend on the processing

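With 10000 strongest peaks, the genes strong in all 4 libraries numbered 2 (Por and Lpcat3), those in HSC alone 0, those at replicate 1 in LSC alone 4 and in HSC alone 1, and those at replicate 2 in HSC alone 0. With 40000 strongest peaks, HSC alone gave 0, LSC alone at replicate 2 gave 1 (Acsl3), and LSC alone in both libraries held Acsl3 in place of Fads2. With all deposited peaks, all 10 genes were listed in all 4 libraries and each of the other 6 counts was 0. With the gene body alone, HSC alone gave 0. Within 1000 bp of the gene ends, the counts for all 4 libraries, LSC alone and HSC alone were each 0, replicate 1 gave 1 for LSC (Cyb5r1) and 1 for HSC (Acsl4), and replicate 2 gave 1 for LSC (Elovl5). With 25 kb flanks, LSC alone at replicate 1 gave 1 (Fads2). Leaving out each library in turn gave 4 to 5 genes in all remaining libraries, 1 to 2 in LSC alone and 1 to 2 in HSC alone. Ranking by fold gave the order of −log10 p for every peak, so it tested nothing. Of the other recomputed counts, 25 moved and 36 were within 1.5 times the reported one, 27 of these with the same genes and 9 with others, such as Cyb5r1 in place of Alox15 for HSC alone at replicate 2 with the gene body alone. None moved with summits in place of overlaps. The cause of these moves was not tested. No paired analysis was possible because the counts come from no test; values within each replicate number are given instead. Unknown read depth and lists of unequal length limit what the absence of a peak can show.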
